A study of Drosophila melanogaster with 9 samples.

Results

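Among the transcripts of serially transplanted intestinal tumors of Drosophila melanogaster, 83 of 18769 probe sets were taken as members. They were lower on every array of the first transplant round, T1, than on any array of the later rounds, T2 and T10. A probe set, the unit that the array measures for a transcript, was taken when its highest T1 value lay below the lowest of the 6 T2 and T10 values and its mean over those 6 arrays exceeded its T1 mean by at least 0.7 on the log2 scale. The members were thus chosen by these values of T1, T2 and T10, so the differences of T2 and T10 from T1 are given below as a description and without a test. Of all probe sets 0.916% kept the rounds apart in this direction at any size. With the threshold the rule was met at 86 probe sets, 0.458% of all, from which 2 of Delta and 1 of shg were left out. Of the 83, 60 carry a single gene symbol and name 51 genes, 23 of them known only by a CG number, 22 carry no symbol and 1 carries several.

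The tumors began as clones in the midgut of adult females. In all 3 rounds the clones were mutant for Apc and Apc2 and expressed RasV12, the transcription factor Snail and GFP from UAS transgenes driven by esg-Gal4, a driver active in the progenitor cells of the intestine. By the series' design text, metastases from 3 such flies were passed through adult female hosts, and RNA of the tumors was measured on 9 Affymetrix arrays, 3 each at T1, T2 and T10, where the number is the round of transplantation. By the sample labels, arrays of the same round are technical replicates. The p-values given below then measure how far these arrays differ, which may be technical in part. Every group carries the same alleles and transgenes, no untransplanted tumor is compared here, and tissue taken from a host can hold cells of that host. In such bulk samples, fewer cells of a kind and less RNA in each cell cannot be told apart.

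Epithelial cells hold together through cadherins and through septate junctions, which seal the space between neighbors, and they rest on a basal lamina of laminin and collagen. Progenitors of the fly midgut express Escargot, a relative of Snail, and give rise to absorptive enterocytes under the control of Notch signaling. Notch signaling is read out in many tissues through small repressor proteins of the Enhancer of split complex, which oppose proneural factors such as Achaete.

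The progenitor gene esg was bright on all arrays, at 10.89 ± 0.361 in T1, 10.69 ± 0.310 in T2 and 9.87 ± 0.589 in T10 (log2, SD, n = 3 each). The T10 minus T1 difference was -1.01 at esg. Among the progenitor genes it was lowest at Sox100B, -4.56, and Sox21a, -3.99, and it was -0.35 at klu, 0.14 at LManVI and 0.47 at Snoo. In T2 replicates 1 and 2 the difference from T1 was 0.05 at Sox100B and -0.14 at Sox21a. Of the 10 progenitor genes measured, 4 had a higher mean in T10 than in T1, among them the member nub. The list mean ranged from 8.32 to 8.68 in T1, 7.89 to 9.19 in T2 and 7.33 to 7.97 in T10. T2 replicate 3 was unlike the rest of its round. Across all probe sets, which are not independent replicates, it correlated with T10 at 0.964 to 0.984 and with T2 replicates 1 and 2 at 0.932 to 0.950. Whether it holds another round than its label says cannot be told from the files. The main counts that rest on T2 are therefore also given without this array. Membership itself rested on few arrays: without T1 replicate 3 the rule was met by 517 probe sets, without T2 replicate 1 by 334 and without T2 replicate 2 by 149.

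Across the 83 members, the mean of T2 and T10 exceeded that of T1 by 0.71 to 3.57 on the log2 scale, with a median of 1.33 or 2.51-fold. The difference was at least 1 at 61 probe sets and at least 2 at 12. The 2 sides were close: the lowest T2 or T10 array lay 0.01 to 0.83 above the highest T1 array, with a median of 0.12, and this gap was under 0.2 at 55 members and at least 0.5 at 5. The lowest of the 6 later arrays was T2 replicate 1 at 41 members, T2 replicate 2 at 29, T2 replicate 3 at 4 and a T10 array at 9. On the T1 side, T1 replicate 3 was the highest of its round at 54.

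The level reached in T2 varied widely from member to member. T2 replicates 1 and 2 lay above T1 by a median of 0.73 and T10 by a median of 1.51. In percent of the difference between T10 and T1, T2 replicates 1 and 2 had reached 2.21 to 180% with a median of 45.6%, and T2 replicate 3 had reached a median of 93.3%. At 37 members T2 replicates 1 and 2 had reached at least 50% of the T10 difference, a count that was 56 with T2 replicate 3 included. A description as genes gained after the first transplant and high from then on thus fits the values of T2 replicates 1 and 2 at 37 of 83 members, and at the other 46 most of the difference was present in T10 and not in these 2 arrays.

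**Figure D1:**
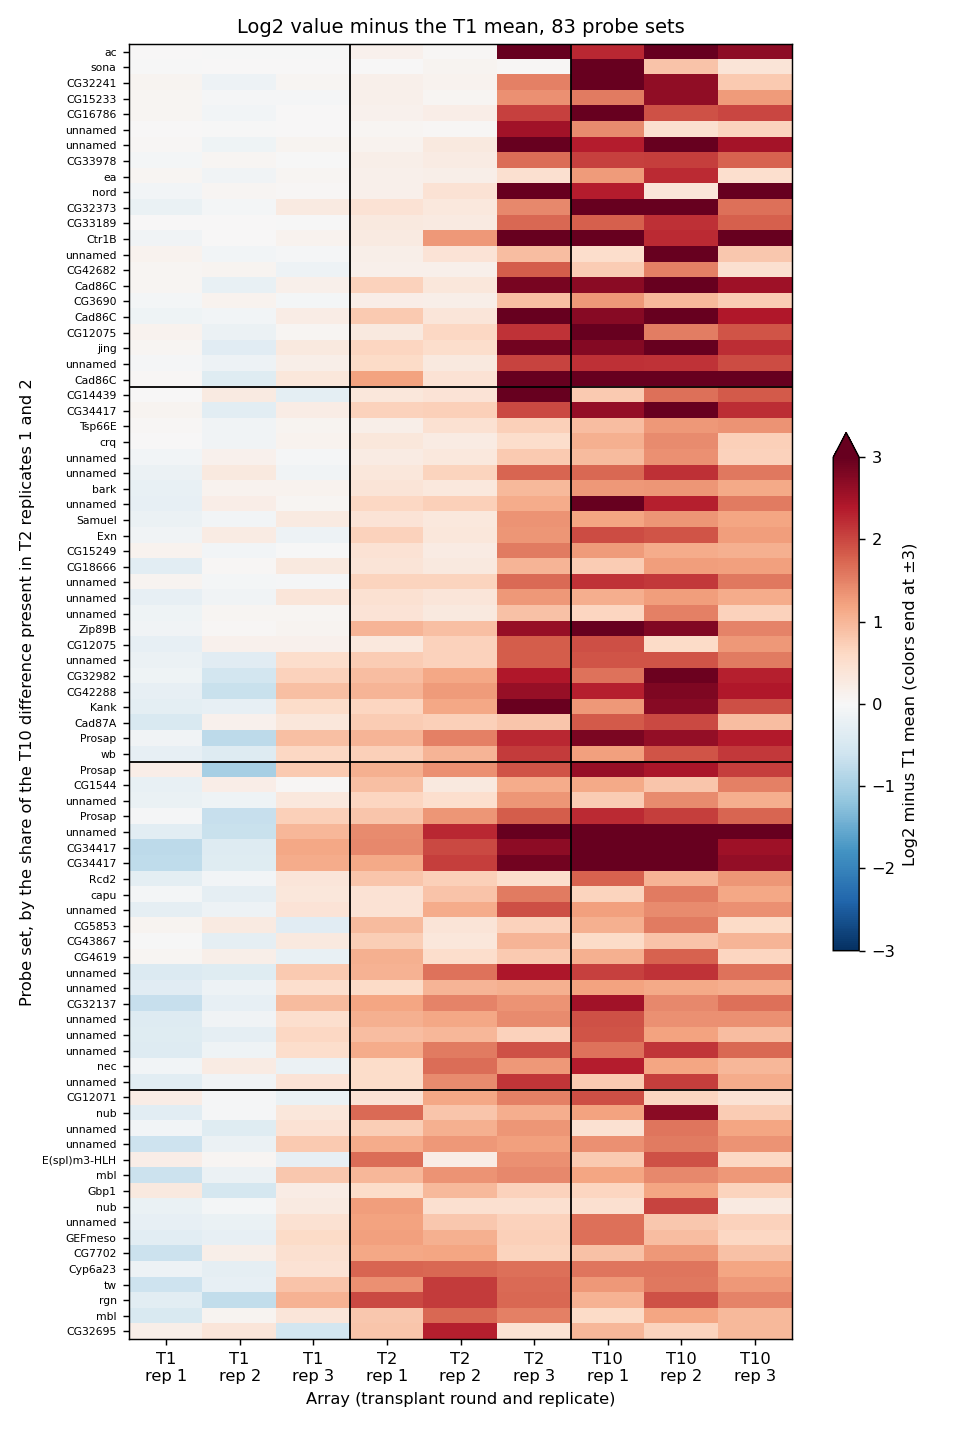
Values of the 83 members (rows) on the 9 arrays (columns), colored by the log2 value minus the T1 mean of the same probe set. Rows are ordered by the share of the T10 difference present in T2 replicates 1 and 2, with lines at 25, 50 and 75%, and T2 replicate 3 resembles T10 in most rows.

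By this share, 22 members stood under 25%, 24 between 25 and 50%, 21 between 50 and 75% and 16 at 75% or more; the bounds were chosen after the values had been seen. The 22 members with the smallest share had a median T1 mean of 5.39, and lay higher by a median of 0.24 in T2 replicates 1 and 2 and of 2.21 in T10. They include Cad86C, Ctr1B, ac, jing, nord, sona and ea. The 16 members with the largest share lay higher by a median of 1.17 in T2 replicates 1 and 2 and of 1.08 in T10. Among them are rgn, tw, Cyp6a23, mbl, nub, E(spl)m3-HLH, GEFmeso and Gbp1.

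**Figure D2:**
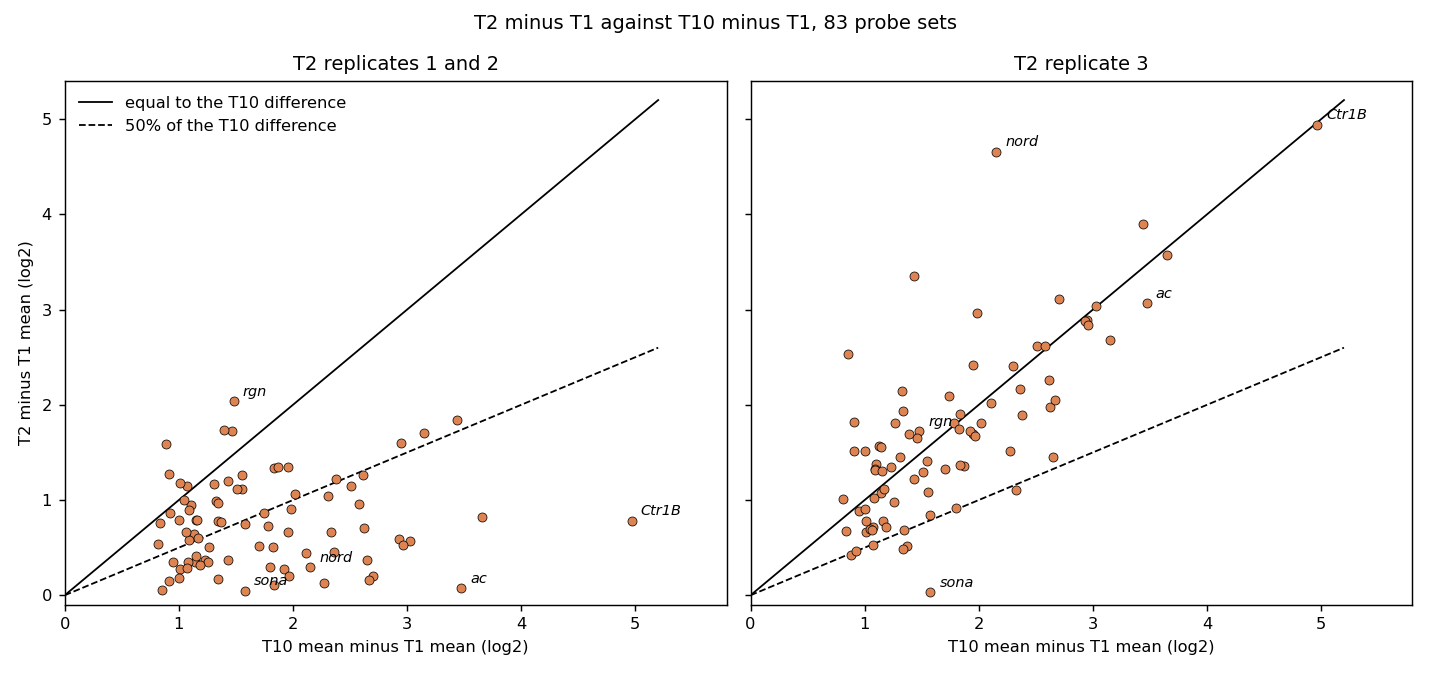
Difference of T2 from the T1 mean (vertical axis, log2) against that of T10 (horizontal axis, log2) for the 83 members, for the mean of T2 replicates 1 and 2 (left) and for T2 replicate 3 (right). The solid line marks equal differences and the dashed line 50% of the T10 difference; 37 members lie on or above the dashed line on the left and 77 on the right.

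Genes of adhesion, junctions and matrix formed a group of 7 genes with 9 member probe sets, and at all 9 T2 replicates 1 and 2 stood under 50% of the T10 difference. Cad86C, a cadherin, was measured by 3 member probe sets. The first of them read 6.56, 6.16 and 6.88 in T1, 7.75, 6.96 and 10.11 in T2 and 9.95, 11.01 and 9.60 in T10. The T10 arrays were all high, and in T2 replicate 3 stood among them while replicates 1 and 2 stood just above T1. The mean was 12.6-fold higher in T10 than in T1, and that of T2 replicates 1 and 2 was 1.77-fold higher than in T1. The other 2 member probe sets of Cad86C were 8.13- and 7.78-fold higher in T10 than in T1. A dimmer probe set of Cad86C was not a member, with means of 3.82 in T1, 4.18 in T2 and 5.21 in T10.

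Cad87A, a second cadherin, read 5.11, 5.69 and 5.91 in T1, 6.34, 6.29 and 6.41 in T2 and 7.40, 7.55 and 6.49 in T10. At this probe set T2 replicate 3 stood with its own round, and the 3 rounds followed each other without overlap. A brighter probe set of Cad87A was not a member. Its means were 8.16 in T1, 8.36 in T2 and 9.60 in T10, and T2 overlapped with T1. The gene bark encodes a protein of the tricellular junctions at which septate junctions of 3 cells meet. It read 9.80, 10.12 and 10.13 in T1, 10.41, 10.33 and 11 in T2 and 11.31, 11.35 and 11.16 in T10, without overlap between any 2 rounds. The gene was bright throughout and 2.39-fold higher in T10 than in T1.

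The laminin alpha chain gene wb read 5.84, 5.70 and 6.71 in T1, 6.79, 7.11 and 8.18 in T2 and 7.31, 7.96 and 8.21 in T10. T2 and T10 overlapped, and the highest T1 array lay 0.08 under the lowest T2 array. At a brighter probe set of wb, not a member, T1 and T2 overlapped, with 8.49 in T1 replicate 3 and 7.63 in T2 replicate 1. Kank, an adaptor of focal adhesions in vertebrates, read 6.45, 6.50 and 7.30 in T1, 7.40, 7.92 and 9.71 in T2 and 8.04, 9.49 and 8.68 in T10. Its highest value was that of T2 replicate 3, and T2 and T10 overlapped. The tetraspanin gene Tsp66E was 2.28-fold higher in T10 than in T1, at 6.36 ± 0.232 and 5.17 ± 0.0985 (log2, SD, n = 3 each). The metalloprotease gene sona, with a gap of 0.01 between T1 and the later arrays, read 5.58, 5.61 and 5.61 in T1, 5.62, 5.68 and 5.63 in T2 and 9.09, 6.45 and 5.99 in T10. All T1 and T2 arrays lay within 0.1 of each other, and T10 replicate 1 was far above the other arrays.

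Transcription factors and RNA-binding proteins, 5 genes with 7 member probe sets, lay at the 2 ends of the range, with 2 probe sets under 25% and 5 at 75% or more. The proneural gene ac, which encodes a basic helix-loop-helix activator, read 4.45, 4.44 and 4.44 in T1, 4.57, 4.47 and 7.51 in T2 and 6.70, 9.93 and 7.12 in T10. The gene was near the T1 level in T2 replicates 1 and 2 and high on the other 4 later arrays. The mean was 11.1-fold higher in T10 than in T1 (16.9-fold without T10 replicate 1 and 5.53-fold without T10 replicate 2), and 1.06-fold higher in T2 replicates 1 and 2. The zinc-finger gene jing, needed in the embryonic trachea and glia, read 6.68, 6.29 and 6.91 in T1, 7.28, 7.15 and 9.51 in T2 and 9.38, 10.46 and 8.84 in T10. T2 replicate 3 again stood among the T10 arrays, and the mean was 7.64-fold higher in T10 than in T1. Another, brighter probe set of jing was not a member, and T1 overlapped with the later rounds there. Its means were 8.41 in T1, 8.98 in T2 and 9.73 in T10.

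The gene nub encodes a POU-domain factor found in enterocytes, and 2 of its 3 probe sets were members. The brighter one read 6.68, 6.96 and 7.34 in T1, 8.69, 7.83 and 8.08 in T2 and 8.19, 9.69 and 7.76 in T10. All 3 T2 arrays were well above T1, T2 and T10 overlapped, and T10 replicate 2 was the highest. The splicing regulator gene mbl, with 2 members among 6 probe sets, read 8.16, 8.70 and 8.97 in T1, 9.42, 10.34 and 10.13 in T2 and 9.19, 9.79 and 9.58 in T10 at one of them. The highest values here were those of T2 replicates 2 and 3. The Notch target E(spl)m3-HLH, a repressor, read 8.96, 8.82 and 8.53 in T1, 10.45, 8.99 and 10.15 in T2 and 9.55, 10.68 and 9.39 in T10. T2 replicate 2 lay 0.03 above the highest T1 array, and the mean was 2.15-fold higher in T10 than in T1.

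**Figure D3:**
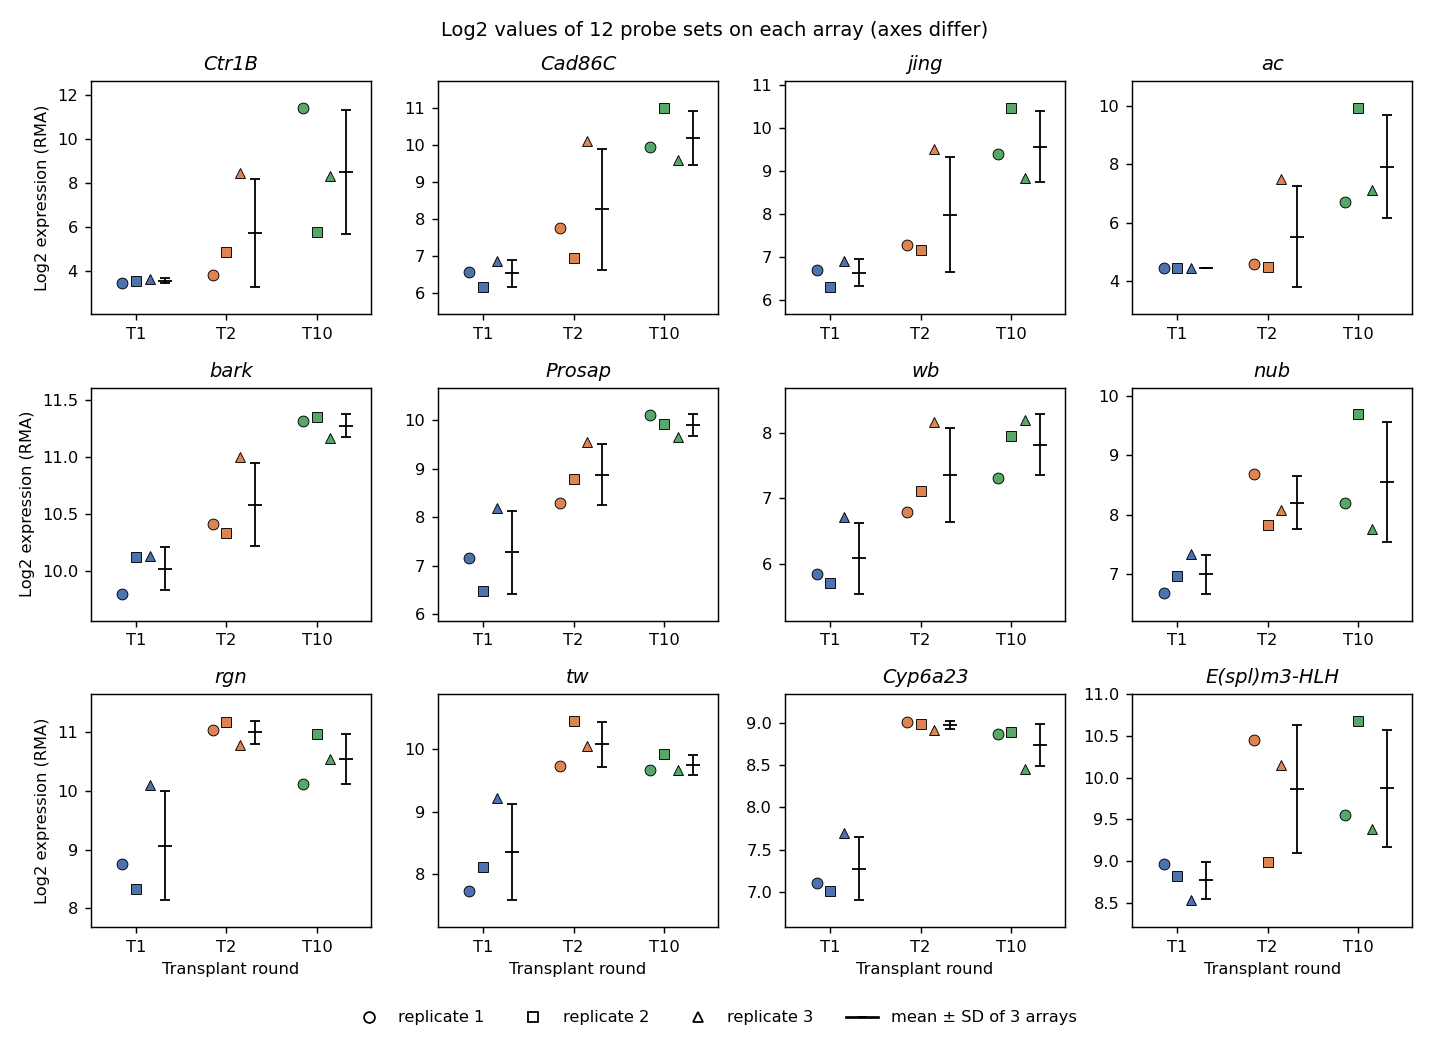
Log2 value on each array for 12 genes, at the member probe set with the largest difference of T2 and T10 from T1, by round (horizontal axis); symbols mark the replicate and bars the mean ± SD of the 3 arrays. Ctr1B, Cad86C, jing and ac show T2 replicate 3 high and replicates 1 and 2 near T1, while rgn, tw and Cyp6a23 are high on all 3 T2 arrays.

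The 4 genes of metal transport and of enzymes were likewise split. Ctr1B, a copper importer, had the largest difference of all members, and read 3.42, 3.55 and 3.64 in T1, 3.80, 4.84 and 8.48 in T2 and 11.43, 5.77 and 8.31 in T10. Its spread in T10 was the widest among the members, with an SD of 2.84, and the mean was 31.3-fold higher in T10 than in T1. That fold rested on single arrays, being 11.3 without T10 replicate 1 and 80.6 without T10 replicate 2, and the T1 mean lay at the 1.4th percentile of all probe sets, where a fold is uncertain. The T2 replicates 1 and 2 were 1.72-fold higher than T1. The zinc transporter gene Zip89B read 7.27, 7.43 and 7.46 in T1, 8.41, 8.29 and 10 in T2 and 10.86, 10.16 and 8.87 in T10, and had the widest gap to T1 of all members, 0.83.

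Cyp6a23, a cytochrome P450 gene, read 7.11, 7.01 and 7.70 in T1, 9.01, 8.99 and 8.92 in T2 and 8.87, 8.89 and 8.45 in T10. The 3 T2 arrays lay within 0.1 of each other and above every T10 array. The protein O-mannosyltransferase gene tw read 7.73, 8.12 and 9.22 in T1, 9.73, 10.45 and 10.05 in T2 and 9.66, 9.93 and 9.66 in T10. The later rounds overlapped, and the highest T10 array lay below T2 replicates 2 and 3.

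The secreted and immune group held 6 genes, each with 1 member probe set. The lectin gene rgn, needed for regeneration of the wing disc, read 8.76, 8.33 and 10.11 in T1, 11.04, 11.17 and 10.79 in T2 and 10.12, 10.97 and 10.55 in T10. T1 replicate 3 lay 0.01 under the lowest T10 array, and T10 replicates 1 and 3 lay below all 3 T2 arrays. The gene nord, whose secreted product modulates BMP signaling in the wing, read 3.88, 4.01 and 3.99 in T1, 4.12, 4.39 and 8.62 in T2 and 6.31, 4.32 and 7.71 in T10. T2 replicate 3 was above all other arrays, and T10 replicate 2 lay below T2 replicate 2.

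Of the innate immune genes, nec, whose serpin product restrains the Toll pathway, read 6.03, 6.37 and 5.94 in T1, 6.67, 7.78 and 7.41 in T2 and 8.48, 7.30 and 7.10 in T10. The later rounds overlapped and were above T1 by 2.16-fold in T2 replicates 1 and 2 and by 2.86-fold in T10. The gene ea, whose protease cleaves the Toll ligand Spätzle in the embryo, read 5.23, 5.06 and 5.23 in T1, 5.32, 5.36 and 5.66 in T2 and 6.45, 7.41 and 5.68 in T10. T2 stayed near T1, and T10 replicate 3 lay next to T2 replicate 3. Gbp1, a growth-blocking peptide, was 1.78-fold higher in T10 than in T1.

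The gene crq, a receptor of the CD36 family that hemocytes use to take up dying cells, was among the 3 named members closest to the threshold. It read 8.40, 8.30 and 8.50 in T1, 8.73, 8.65 and 8.93 in T2 and 9.47, 9.82 and 9.12 in T10, without overlap between any 2 rounds. Of the 20 hemocyte markers measured, 16 had a higher mean in T10 than in T1, and the mean of the list ranged from 6.35 to 6.56 in T1, 6.40 to 7.05 in T2 and 6.83 to 7.18 in T10. The defining markers Hml, NimC1, eater, He and srp stayed between 3.21 and 5.34 on all arrays. Other genes of the list had higher means in T10 than in T1, among them Ance by 3.35, Col4a1 by 1.92, vir-1 by 1.83 and Pxn by 0.86. The T10 minus T1 difference was -0.99 at drpr, -0.52 at ush, -0.41 at Fer1HCH and -0.26 at srp. The list holds 2 members, crq and nub, which were chosen as higher than in T1. Its median difference between T10 and T1 was 0.24, beside -0.03 over all genes with a named probe set.

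Markers of trachea and chitin differed more between the rounds. Of the 22 measured, 19 had a higher mean in T10 than in T1, and the mean of the list ranged from 6.27 to 7.16 in T1, 6.45 to 8.80 in T2 and 8.63 to 9.29 in T10. The highest T2 value, 8.80, was that of replicate 3. The markers of fat body, from 7.28 to 7.69 in T1, 7.68 to 8.74 in T2 and 7.19 to 7.40 in T10, did not follow this course. The part of these cell types in the values of the members was not tested.

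Scaffolds and regulators of GTPases and actin were 4 genes with 6 member probe sets. Prosap, the fly homolog of the postsynaptic scaffold Shank, had all 3 of its probe sets among the members. One read 7.16, 6.49 and 8.18 in T1, 8.30, 8.78 and 9.54 in T2 and 10.10, 9.92 and 9.66 in T10, and the rounds did not overlap. At the 3 probe sets the mean was 6.13-, 5.21- and 4.05-fold higher in T10 than in T1, and T2 replicates 1 and 2 had reached 48.3, 51.2 and 52.98% of the difference. Exn, a guanine nucleotide exchange factor, read 9.36, 9.70 and 9.31 in T1, 10.15, 9.79 and 10.78 in T2 and 11.42, 11.34 and 10.72 in T10, where T10 replicate 3 lay just under T2 replicate 3. Another probe set of Exn was not a member, and its means were 7.43 in T1, 9.02 in T2 and 8.59 in T10. The actin nucleator gene capu and the exchange factor gene GEFmeso were 2.19- and 2.10-fold higher in T10 than in T1.

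The 23 genes known by a CG number accounted for 26 member probe sets. CG34417 had 3 of 3 probe sets among the members, and the first read 6.86, 7.25 and 8.80 in T1, 9.07, 9.61 and 10.32 in T2 and 11.15, 11.02 and 10.18 in T10. All later arrays were high, and T10 replicate 3 lay below T2 replicate 3. The 3 probe sets were 8.86-, 7.71- and 6.15-fold higher in T10 than in T1. CG16786, CG32373, CG33978, CG33189 and CG15233 stood near T1 in T2 replicates 1 and 2, at 1.08- to 1.30-fold, and were 3.56- to 6.35-fold higher in T10 than in T1, the highest being that of CG16786, which was 3.9-fold without T10 replicate 1. CG7702, CG32695 and CG12071 had reached at least 75% of the T10 difference in T2 replicates 1 and 2.

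The 23 members without a single symbol had differences from T1 of 0.73 to 2.98. Of these, 4 stood under 25% of the T10 difference in T2 replicates 1 and 2 and 3 at 75% or more. At the threshold, the last members inside were CG43867 at 0.76, crq at 0.72 and CG3690 at 0.71. Just outside lay yellow-e2 at 0.69, Jhbp1 at 0.67 and CG1468 at 0.65. The rule thus separated genes that differed by a few hundredths of a log2 unit.

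Other probe sets of the same genes were compared by the mean over T2 and T10, which T10 alone can raise. Of the 51 named genes 17 had more than 1 probe set and 6 had more than 1 member, namely Cad86C, CG34417, Prosap, mbl, CG12075 and nub. At the 25 probe sets of the named genes that were not members, the mean of T2 and T10 lay above T1 in all 25 and by at least 0.7 in 18, and 1 kept the rounds apart without overlap. The largest of these differences were 2.55 and 2.09 at the other probe sets of sona and 2.35 at that of CG33978. The smallest was 0.04, at a probe set of wb where the T2 mean, 4.47, lay below the T1 mean, 4.49. They were read from the same arrays and are a description.

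A few members lie side by side in the genome. Among protein-coding genes of the RefSeq annotation, jing is next to CG15233 and CG4619 next to CG5853, and a single gene lies between Prosap and CG42288. The share of the T10 difference reached in T2 replicates 1 and 2 was 20.1% at jing and 6% at CG15233, 67.9% at CG4619 and 62.7% at CG5853, and 45.6% at CG42288 beside the 48.3 to 52.98% of Prosap.

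The members also had a wider spread within a round than probe sets in general. The median SD over the members was 0.281 in T1, 0.565 in T2 and 0.446 in T10, against 0.174, 0.189 and 0.164 over all probe sets in the same order of rounds. The T2 value includes replicate 3, and between T2 replicates 1 and 2 the median difference over the members was 0.27. Within T10, replicate 2 was the highest at 46 members, replicate 1 at 30 and replicate 3 at 7. T2 replicate 3 lay above all T10 arrays at 16 members, within their range at 47 and below them at 20.

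Whether the members went on to differ between the second and the tenth round cannot be read free of the rule, which used the values of both rounds. At 16 members the T2 mean was under 0.7 above T1, so these met the threshold only through T10, while at 0 members the T10 mean was under 0.7 above T1. The counts of members below, and the p-values of single members, are therefore a description. The shares over all probe sets stand beside the counts without a conclusion. The T10 mean was above the T2 mean at 75 members and below it at 8 (76 and 7 without T2 replicate 3), and the median difference was 0.53 over the members and 0.04 over all probe sets. All 3 T10 arrays lay above all 3 T2 arrays at 16 members, or 19.3%, beside 11.9% of all probe sets. The named genes among them were Cad87A, bark, Tsp66E, sona, ea, crq, Prosap, Rcd2, CG34417, CG32373, CG33189 and CG33978. The reverse held at 1 member, Cyp6a23, or 1.2%, beside 9.41% of all probe sets.

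In the fit of limma to all 9 arrays, no member passed a Benjamini-Hochberg adjusted p of 0.05 between T10 and T2, and neither did any other probe set, 0% of those tested in each direction. At an unadjusted p under 0.05, 25 members, or 30.1%, were higher in T10 and 0 lower, beside 8.45% of all probe sets higher and 8.60% lower. Without T2 replicate 3 these were 45 and 0 members, beside 10.6 and 11.6% of all probe sets. The smallest adjusted p of a member was 0.171, for Tsp66E at a log2 difference of 0.73 (standard error 0.168). The largest difference, 2.80 (standard error 1.55) for Ctr1B, had an adjusted p of 0.387 and p = 0.3 in an exact permutation test (two-sided, n = 3 each), whose smallest possible p is 0.1. For ac the difference was 2.40 with an adjusted p from limma of 0.290, for Cad86C 1.91 with 0.270, for CG32373 1.92 with 0.178 and for CG16786 1.88 with 0.253.

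The members with the lowest differences did not pass either. At rgn, tw, Cyp6a23 and 1 of the member probe sets of mbl, the T10 minus T2 difference was -0.45, -0.33, -0.24 and -0.44 with adjusted p from limma of 0.602, 0.658, 0.550 and 0.464, which does not show that the rounds were alike. Without T2 replicate 3 it was -0.56, -0.34, -0.26 and -0.36. At the other 5 of the 6 probe sets of mbl the T10 mean was above the T2 mean. For CG32695 the difference was -0.32, and it was 0.25 without T2 replicate 2 and -0.70 without T2 replicate 3.

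Without T2 replicate 3, 19 members, or 22.9%, were higher in T10 than in T2 at an adjusted p under 0.05 in limma and 0 were lower, beside 3.15% of all probe sets higher and 4.32% lower. The median difference was then 0.82 over the members and 0.03 over all probe sets, and T10 lay above T2 without overlap at 56 members, or 67.5%, beside 22.1% of all probe sets, and below it at 2, Cyp6a23 and rgn, beside 19.6%. Since 2 T2 arrays are left in that fit, their spread is taken to be like that of the other rounds. The array was left out because its values resembled T10. That choice by itself favors larger differences between T10 and T2 and more calls, so the p-values of this fit are a description. Among the genes that passed, CG33978 rose by 1.76 (standard error 0.120, adjusted p 0.00147), bark by 0.90 (0.135, 0.0117), Tsp66E by 0.87 (0.164, 0.0250), Exn by 1.19 (0.246, 0.0328) and jing by 2.35 (0.441, 0.0244). These values are of the member probe sets, and at another probe set of Exn the T10 mean lay below the T2 mean. Cad86C rose by 2.83, 2.45 and 2.44 at its 3 member probe sets, with adjusted p of 0.0140, 0.0191 and 0.00822. The others named were CG15233, CG15249, CG32373, CG33189, CG34417, CG3690 and Samuel. Of the genes that passed, CG33978, bark, Tsp66E, CG15233, CG3690 and Samuel had a T2 mean of all 3 arrays under 0.7 above T1. They met the threshold only through T10, so T10 above T2 was in part set by their choice. On T2 replicates 1 and 2, the arrays of this fit, the same limit holds for more genes. These 2 arrays lay above T1 by 0.59 at jing, 0.51 at Exn, 0.35 at CG15249, 0.37 at CG32373 and 0.27 at CG33189. At the Cad86C probe sets they lay above T1 by 0.82, 0.57 and 0.525. Ctr1B and ac, which differed most, were at adjusted p of 0.140 and 0.0637. With array weights in the fit to all 9 arrays 11 members passed, all higher in T10, beside 2.36% of all probe sets higher and 3.6% lower. Without replicate 3 of every round 27 passed, beside 2.95% higher and 3.78% lower.

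By role, in the fit without T2 replicate 3 that called 3.15% of all probe sets higher, 5 of the 9 adhesion, junction and matrix probe sets passed, which are those of 3 of 7 genes, Cad86C, bark and Tsp66E. So did 1 of the 7 of transcription and RNA processing and 1 of the 6 of scaffolds and GTPase or actin regulation. None of the 4 of metal transport and enzymes passed, and none of the 6 of the secreted and immune group. These groups are small, were drawn up with the results known and carry no test of their own.

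**Figure D4:**
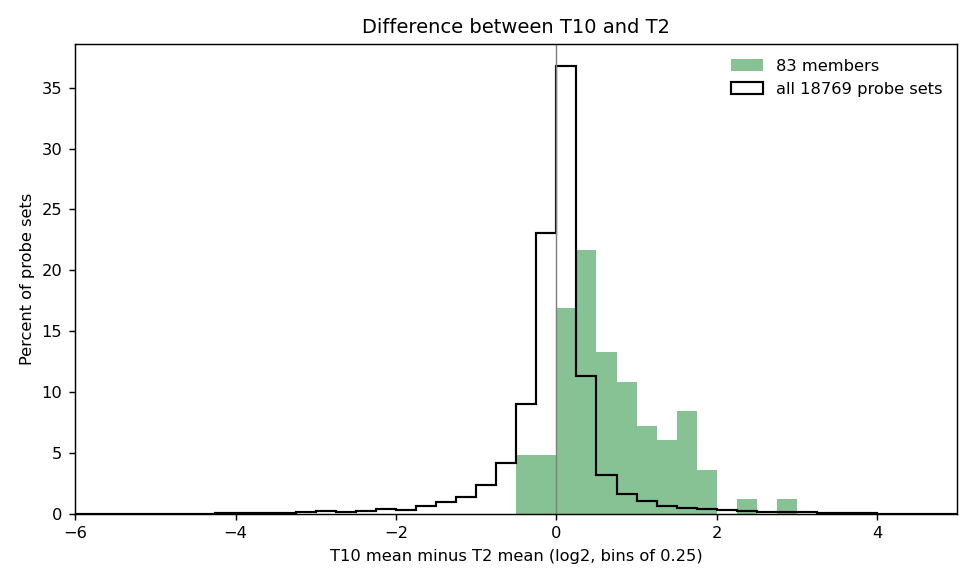
Distribution of the T10 mean minus the T2 mean (log2, bins of 0.25) for the 83 members and for all 18769 probe sets, as the percent of probe sets in each bin. The median is 0.53 over the members, whose choice used both rounds, and 0.04 over all probe sets.

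The families around the members were counted in the same way, for lists of genes in which each gene stands with its brightest probe set. Calls without T2 replicate 3, an array left out for its likeness to T10, are at an adjusted p under 0.05 in limma. That fit called 3.15% of all probe sets higher and 4.32% lower. Of 11 cadherins, 6 were higher in T10 than in T2 without T2 replicate 3 and 0 lower: Cad86C, Cad74A, Cad96Cb, CadN, ds and stan. Of 26 genes of the pleated septate junctions, 6 were higher, among them bark, Gli, kune and sinu, and 0 lower. The median difference between T10 and T2 on all 9 arrays was 1.23 over the cadherins and 0.64 over the pleated septate junction genes (1.21 and 0.89 without T2 replicate 3), beside 0.02 over all genes with a named probe set. No gene of either list passed in the fit to all 9 arrays. The smooth septate junctions, the kind found in the midgut, are a list of 3 genes that holds no member, and its median difference between T10 and T2 was -3.23.

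In the other lists that hold a member, no member passed without T2 replicate 3. The counts below stand beside 3.15% of all probe sets higher and 4.32% lower. Several are near these shares, and no conclusion is drawn from them. Of 21 Notch pathway genes Tom was higher without T2 replicate 3, and of 24 secreted growth and wasting signals Ilp8 and dpp. Of 19 genes of the Toll and Imd pathways 2 were higher and 1 lower, and of 16 basal lamina genes 0 and 1. The detoxification genes, 32 in number, had 1 higher and 4 lower, and the 34 ion and nutrient transporters 2 and 3. Of 20 hemocyte markers 2 were lower, of 23 enterocyte genes 3 and of 10 progenitor genes 1, with 0 higher in each. In the fit to all 9 arrays no gene of these lists passed.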

How the data were processed

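The authors hybridized amplified cDNA of tumors from transplant rounds T1, T2 and T10 to 9 arrays, and deposited log2 expression values after RMA, for which the submitters' processing notes name affy; the sources used here do not give versions. These log2 values were used as deposited. Of 18952 probe sets, 183 controls were left out. Genes were named at probe sets with 1 platform symbol (13647; 402 have several and 4720 none), updated through Entrez identifiers to RefSeq names (Release 6 plus ISO1 MT), which matched 13544 and changed no symbol of a member. Rounds were taken from the sample labels.

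T10 and T2 were compared with limma 3.58.1 (lmFit, eBayes) in R 4.3.3, on all 9 arrays, without covariates and over 18769 probe sets, adjusted by Benjamini-Hochberg, and single genes by exact permutation tests. The fit was tested on simulated data. The members and the 42 gene lists were chosen with earlier results of these data known, and the shares, roles and bounds after the values were seen. Named genes were the 20 largest differences, list members, the 5 highest and 5 lowest T10 minus T2, the brightest and dimmest 5, and the 3 nearest the threshold on each side; other members were named after their values were seen. Alternatives changed the threshold, scaling, floor, moderation, weights, probe sets per gene and arrays. The number of arrays limits the precision. Promoter sequences were not used here.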

Additional observations from a re-analysis of the deposited data

How the results depend on the processing

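The membership rule gave 83 probe sets, 41 with 1 probe set per gene, and 85 to 517 when single arrays were left out; without replicate 1, 2 or 3 of every round it gave 394, 209 and 506, and other thresholds, scaling or a floor gave 61 to 104. Between T10 and T2, limma called no member at an adjusted p of 0.05 on the full set of 9 arrays, nor at 0.1, with quantile scaling, other moderation, brighter probe sets only or the T10 and T2 arrays alone. With array weights 11 passed, without replicate 3 of every round 27, and 0 to 19 when single arrays were left out, 19 without T2 replicate 3. Over all probe sets the count was 0, 1118 with array weights, 5 with quantile scaling, 11 at an adjusted p of 0.1, 1263 without replicate 3 of every round, and 0 to 1401 without single arrays. Members above T2 on every T10 array numbered 16, 7 with 1 probe set per gene and 16 to 56 without single arrays (31 without T10 replicate 3), and those below 1 to 3. Shares over all probe sets were counted for the full set and without T2 replicate 3 only, so no conclusion is drawn from the other counts. The median difference was 0.46 to 0.82, and members whose T2 mean reached 50% of the T10 difference numbered 37 to 70. For CG32695 the difference ran from -0.70 to 0.25 without single arrays, 0.25 without T2 replicate 2, and was 0.36 without replicate 2 of every round. The causes were not tested. Same-numbered arrays of different rounds share a number only: their deviations correlated at -0.28 to 0.19, above 0.1 in 3 of 9 pairs. With the replicate number as a block 0 members passed, the median stayed at 0.53, and 20 members were higher and 4 lower in every same-numbered pair. The share of all probe sets in such pairs was not counted, and no conclusion is drawn.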
